A study of Mus musculus with 25 samples.

Results

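The comparison was between old thymocytes taken from hosts without competition and old thymocytes taken from hosts with competition. The samples were chosen by their source label alone, which gave 15 of the 25 samples of the series: 9 without competition and 6 with competition. Old cells without competition were of donor strain F1(WB x B6/Ly5.1). They came from hosts (Rag2-/-γc-/-KitW/Wv) with mutant Kit and without both Rag2 and γc, the gamma chain shared by several cytokine receptors, and the labels call these hosts non-competitive. Old cells with competition had the background B6/Ly5.1, were of donor origin, carried the CD45.1 allele and came from wild-type hosts, called competitive. All 15 samples had the surface phenotype CD4-CD8-CD3-CD25+, the TN2 and TN3 stages of the triple-negative thymocyte. Replicate 1 of the old cells without competition had no cell-type label, and its group rests on its source label. The other 10 samples are used here only for levels beside the comparison and for the estimate of the spread. They were young host cells (C57BL/6, CD45.2, n = 6) and wild-type B6/Ly5.1 controls at TN3 (CD25+CD44-, n = 2) and at TN2 (CD25+CD44+, n = 2). The labels give no age of the cells or mice, and they leave unsaid whether each sample is from its own mouse. The spread that the p-values rest on is that between samples and may be technical. They also say that samples were either made directly from cell suspensions or sorted, without saying which sample was which.

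T cells form in the thymus from progenitors that arrive from the bone marrow. At TN2 a progenitor commits to the T lineage, and at TN3 it rearranges the T cell receptor beta locus with the RAG recombinase. Progenitors that have lately arrived normally displace those that have stayed longer in the thymus, a process called cell competition. Where host marrow supplies no progenitors able to do so, as in hosts without the gamma chain, which the interleukin-7 receptor needs, the resident cells persist.

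RNA was copied into biotin-labelled cRNA and hybridised to Illumina bead arrays, 1 array per sample. Levels below are normalized log2 intensities, and a fold change is the mean log2 level without competition minus that with competition, ± its standard error (SE). A gene is called where its adjusted p was below 0.05 in limma's moderated test over 15533 genes. Probes were detected less often in old cells without competition, at 41.1% to 45.7% of probes per array, against 46.8% to 49.4% with competition. Young cells, on the same chips as the cells with competition, had 46.7% to 50.1%. TN2 and TN3 controls had 43.1% to 44.6%. They lay on neither of those chips but on chip 3 and on chip 5, which also held cells without competition. Strain, host and chip all differed between the groups: cells without competition lay on chips 1 (6 arrays) and 5 (3 arrays), and cells with competition on chips 2 and 4 (3 arrays each). Competition, host, strain and chip therefore cannot be told apart. In whole-sample RNA, fewer cells of a type and less RNA per cell cannot be told apart either.

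Array 6 of the old cells with competition stood apart from its group. On it, 2304 genes differed by more than 1 log2 unit from the mean of the group's other arrays, against 85 to 185 genes for each of those. The mean level of 32 genes of DNA replication was 6.60 on array 6 and 8.06 to 8.15 on the other 5. The mean of 16 genes of double-positive and later thymocytes was 7.56 on array 6 and 6.19 to 6.44 on the others. Cd4, the coreceptor that the labelled phenotype lacks, was at 8.86 on array 6. The labels do not say whether the sample of array 6 was sorted. Among old cells without competition, array 1 was the farthest from its group, with 798 genes against 149 to 410. The counts of called genes are therefore given with and without array 6, and so are single values that moved most with it.

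None of the genes checked against the labels (Cd44, Kit, Il2ra, Cd3e, Cd4, Rag2, Il2rg and Ptprc) was called. Rag1, also a gene of the TN3 stage, was called lower without competition and is given further below. Cd44, whose loss marks the passage to TN3, lay at 4.38 to 4.72 without competition (median 4.57) and at 4.14 to 4.68 with competition (median 4.54). Both groups lay near the TN3 controls (4.46 on both arrays) and below the TN2 controls (6.08 and 6.60). Kit, the stem cell factor receptor of early progenitors, lay at 4.28 to 5.47 (median 4.49) without and at 4.08 to 5.58 (median 4.37) with competition, against 7.49 and 7.73 in TN2 controls and 5.78 and 5.60 in TN3 controls, so that for Kit both old groups lay below the TN3 controls. The fold changes of Cd44 and Kit were 0.07 ± 0.14 and 0.16 ± 0.24 and were not called, and each turned to a value just below 0 with median scaling. Il2ra, which encodes CD25, had a dim probe with a fold change of -0.21 ± 0.16 (95% interval -0.53 to 0.12) that was detected on 5 of 9 arrays without and 5 of 6 with competition. Cd3e mRNA was high in both groups, at medians of 9.81 without and 10.12 with competition, though the labels give cells without surface CD3. Rag2 and Il2rg, the genes missing in the hosts of the cells without competition, had detected signal in 6 and 7 of these 9 donor-derived samples. Neither was called, with -0.19 ± 0.30 for Rag2, which turned to 0.19 without array 6, and -0.62 ± 0.32 for Il2rg, which was -0.34 without array 6. Ptprc, which encodes CD45, was at -0.41 ± 0.16 (-0.22 without array 6) and also not called, nor were its other probes, at -0.83 ± 0.21 and -0.21 ± 0.22. Cd8a had no kept probe.

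In the comparison itself, 193 of 15533 genes were called (1.24%). In old cells without competition 64 genes were higher (0.412% of genes) and 129 were lower (0.83%), so that 66.8% of the calls were lower. The change was at least 2-fold in 32 called genes, 16 in each direction. Without array 6 the count was 337 (2.17%), with 106 higher (0.682%) and 231 lower (1.49%). Of the 193 genes, 165 were called both ways, 53 of them higher and 112 lower, while 28 lost their call and 172 others gained one. None of the 193 changed sign when array 6 was left out. Without array 1 or array 4 of the old cells with competition the count was 119 or 108. The direction split depended on the scaling: median scaling in place of quantile normalization moved the median of all genes to -0.20 and made 3425 calls, 98.8% of them lower. Fold sizes depended on the background correction, since without it the change of H2-Q8, for example, was 1.36 in place of 2.89.

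**Figure D1:**
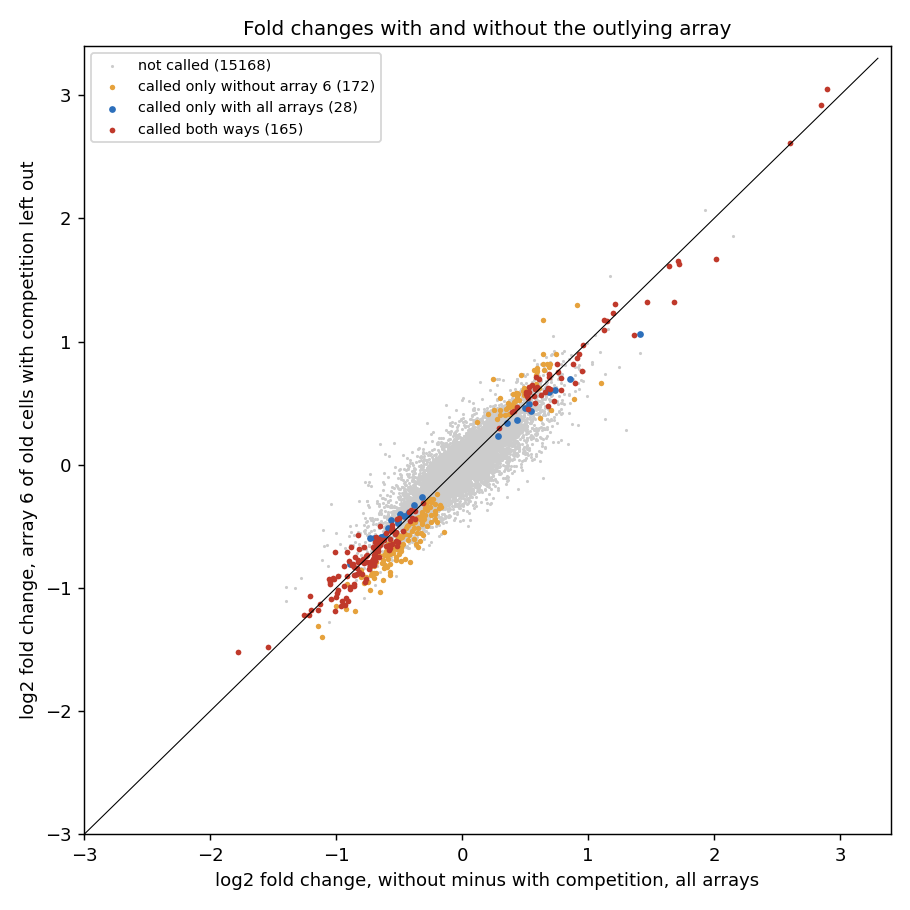
Each point is 1 of 15533 genes, with its log2 fold change (old cells without minus old cells with competition) over all arrays on the x axis and with array 6 of the old cells with competition left out on the y axis. The 165 genes called both ways lie near the diagonal, and the 172 genes called only without array 6 lie mostly at smaller fold changes.

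H2-Q8, a class I gene of the Qa-2 region of the major histocompatibility complex (MHC), had the largest rise. Its probe lay between 7.04 and 7.80 (median 7.58) without competition and between 4.15 and 5.37 (median 4.45) with competition, a fold change of 2.89 ± 0.23 (adjusted p = 4.15e-08). The groups did not overlap, and the cells without competition lay within the range of young cells (6.89 to 8.18). In controls, of background B6/Ly5.1 like the cells with competition, H2-Q8 lay at 6.84 and 7.34 (TN2) and at 5.33 and 6.82 (TN3). Its other kept probe differed by only 0.34 ± 0.21, and genes of this region are near-identical copies, so the value belongs to that probe and cannot be assigned to H2-Q8 alone. H2-Q2, of the same region, also rose, at 6.15 to 7.39 (median 7.16) without and 4.82 to 6.43 (median 5.92) with competition, with 1.21 ± 0.21 (adjusted p = 0.0036). The ranges overlapped slightly, and H2-Q2 was near the floor in young cells, at 4.07 to 4.51.

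Rsph1, which encodes a radial spoke protein of motile cilia, was at 7.40 to 8.28 (median 7.91) without and 4.67 to 5.35 (median 4.92) with competition. Its fold change was 2.85 ± 0.21 (adjusted p = 1.12e-08), and every array without competition lay above the other 16 arrays of the series. Litaf, a protein of late endosomes and lysosomes, was at 5.73 to 7.03 (median 6.45) without and 4.12 to 5.35 (median 4.40) with competition, a rise of 1.72 ± 0.21 (adjusted p = 3.72e-05). Litaf lay at 6.34 to 7.08 in young cells and at 6.91 and 6.97 in TN2 controls. In TN3 controls Litaf lay at 4.08 and 4.58, as low as in the cells with competition. Cd200, the ligand of an inhibitory receptor on myeloid cells, was at 5.72 to 6.73 (median 6.05) without and 4.12 to 4.82 (median 4.40) with competition, a rise of 1.72 ± 0.26 (adjusted p = 0.000727). The groups did not overlap for Litaf or for Cd200. Cd200 lay at 5.70 and 7.08 in TN3 controls and at 4.19 and 4.27 in TN2 controls. The other Cd200 probe gave 0.71 ± 0.19 and was not called. H2-Q8, Litaf and Cd200 were each detected on 3 of the 6 arrays with competition.

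Rnf135, a ubiquitin ligase of the RIG-I antiviral pathway, was at 6.82 to 8.48 (median 7.55) without and 4.10 to 6.71 (median 6.15) with competition. It rose by 1.68 ± 0.32 (adjusted p = 0.00666), or by 1.32 without array 6, which was the lowest array at 4.10. Its other kept probes gave 0.46 ± 0.19 and 0.10 ± 0.13, neither of them called. The 6 arrays with competition lay below all 19 others. Pdgfa, the A chain of platelet-derived growth factor, was at 6.30 to 7.68 (median 6.95) without and 4.08 to 6.82 (median 5.75) with competition, and array 6 was again the lowest. Its rise of 1.37 ± 0.30 (adjusted p = 0.0194) was 1.05 without array 6, and it lost its call without array 4 of the same group (adjusted p = 0.0567). Ptpn7, a phosphatase of MAP kinases in blood cells, was at 4.62 to 5.75 (median 5.22) without competition. With competition it lay at 4.07 to 4.23 and was not detected on any of the 6 arrays, so Ptpn7 was at least 2.04-fold higher without competition (adjusted p = 7.02e-05). Young cells were higher than either group for Ptpn7, at 6.22 to 6.77. TN2 controls lay at 4.06 and 4.24 and TN3 controls at 4.07 and 4.11, and Ptpn7 was not detected on any of them. These controls had the background B6/Ly5.1, as did the cells with competition, and the part of strain in the Ptpn7 values was not tested.

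Mtmr9, a myotubularin-related protein without phosphatase activity, was at 6.25 to 6.85 (median 6.74) without and 5.24 to 5.87 (median 5.57) with competition, a rise of 1.12 ± 0.13 (adjusted p = 2.41e-05). As for Rsph1, every Mtmr9 value without competition lay above those of all other arrays. The remaining named rises were Tsen34, a subunit of the tRNA splicing endonuclease, Aldh2, the mitochondrial aldehyde dehydrogenase, and Fam20b, a kinase that acts on proteoglycan linkage sugars. Their fold changes were 0.96 ± 0.18, 0.95 ± 0.18 and 0.93 ± 0.19. Groups did not overlap for Tsen34 and Fam20b and overlapped slightly for Aldh2, at 9.34 to 10.40 without and 7.94 to 9.42 with competition.

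The largest fall was that of Nlrc5, the transcriptional activator of MHC class I genes. It was at 4.12 to 6.05 (median 4.72) without and 5.70 to 7.98 (median 6.74) with competition, a fold change of -1.78 ± 0.32 (adjusted p = 0.00481). The ranges overlapped, the gene was detected on 6 of 9 arrays without competition, and the change was -1.52 without array 6, which had the highest value. Neu1, the lysosomal sialidase encoded in the MHC, was at 4.30 to 6.12 (median 5.07) without and 6.19 to 6.98 (median 6.81) with competition, a fold change of -1.54 ± 0.28 (adjusted p = 0.00519). The groups did not overlap, and young cells, at 5.48 to 7.28, overlapped both while lying above 6 of the 9 arrays without competition.

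Copb1, a subunit of the COPI coat, was at 4.08 to 4.58 (median 4.19) without and 5.13 to 5.72 (median 5.38) with competition, with -1.13 ± 0.13 (adjusted p = 1.43e-05). Picalm, a clathrin assembly protein, was at 5.95 to 6.53 (median 6.35) without and 7.05 to 7.50 (median 7.35) with competition, with -1.04 ± 0.15 (adjusted p = 0.000407). Neither gene's groups overlapped, and Copb1 was detected on only 3 of the 9 arrays without competition. Copb1 lay at 4.93 to 5.75 in young cells, which shared chips with the cells with competition. In TN3 controls Copb1 lay at 4.10 on chip 5 and at 4.09 on chip 3. In TN2 controls Copb1 lay at 4.54 on chip 5 and at 4.34 on chip 3. Chip 5 also held cells without competition. Picalm lay at 6.82 to 7.10 in young cells and at 5.72 to 6.94 in TN2 and TN3 controls. The part of the chip in these values was not tested.

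Pnrc2, which links nonsense-mediated messenger RNA decay to decapping, was at 5.91 to 7.05 (median 6.08) without and 7.10 to 8.21 (median 7.44) with competition, a fold change of -1.20 ± 0.17 (adjusted p = 0.000298). Its other kept probe was at -0.12 ± 0.18. Tor1aip2, a cofactor of torsin ATPases in the endoplasmic reticulum, was at 4.55 to 6.46 (median 5.41) without and 6.38 to 6.87 (median 6.54) with competition, with -1.22 ± 0.21 (adjusted p = 0.00331). Its other kept probes gave -0.16 ± 0.23, not called, and -0.67 ± 0.16, called. Rsf1, a subunit of a chromatin remodelling complex, was at 4.75 to 6.58 (median 6.10) without and 6.61 to 7.49 (median 6.96) with competition, with -1.03 ± 0.23 (adjusted p = 0.0245). Rsf1 is a gene whose other kept probe was also called, at -1.27 ± 0.20, though its own call was lost without array 2 of the cells with competition (adjusted p = 0.0525). Fam32a, Ndrg2 and Gpn2, a GTPase of the GPN family, completed the named falls at -1.14 ± 0.27, -1.01 ± 0.22 and -1.01 ± 0.24. Fam32a lost its call in 9 and Gpn2 in 10 of the 15 fits that left out 1 array, and Ndrg2 lost it without array 1 or array 4 of the cells with competition. Ndrg2 also lost its call with the mean of its probes. The other kept probes of Fam32a and Ndrg2 gave -0.41 ± 0.20 and -0.23 ± 0.20, neither of them called.

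**Figure D2:**
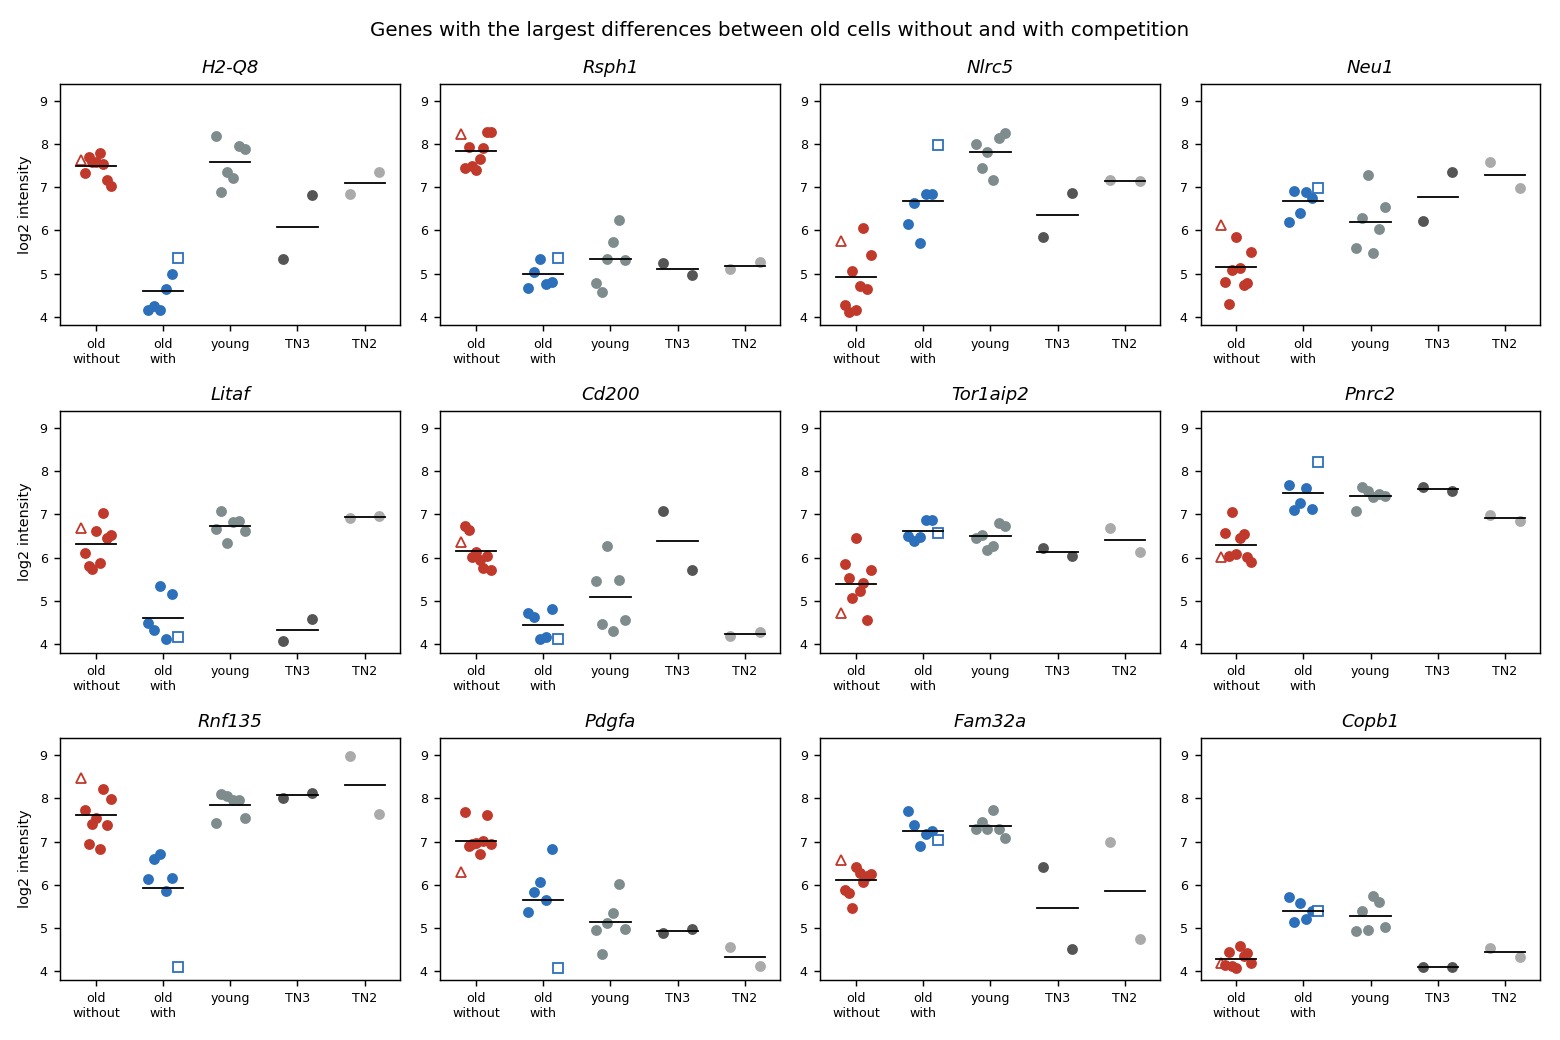
Normalized log2 intensity of the 6 largest named rises (left pair of columns) and falls (right pair) on every array, with a bar at each group mean and n = 9 old without competition, 6 old with competition, 6 young, 2 TN3 and 2 TN2. The open square is array 6 of the old cells with competition and the open triangle array 1 of the old cells without. H2-Q8, Litaf and Rnf135 are low in old cells with competition alone among the old and young groups. TN3 controls are also low for Litaf, and a TN3 control, at 5.33, is low for H2-Q8. Rsph1 is high in old cells without competition alone.

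The lists of MHC class I presentation and of the interferon response had 4 and 3 called members, all of them lower without competition. MHC class I molecules show peptides, cut by the immunoproteasome and pumped by the TAP transporter, on nearly every cell, and interferons raise these genes through transcription factors that include IRF9. Of 21 measured genes of class I presentation, 4 fell, none rose and 17 did not pass the test. This list does not hold H2-Q8, H2-Q2 or H2-Q6, which were called higher. The median fold change was -0.35, against 0.02 over all genes, and 17 of the 21 had a negative fold change. Of 33 measured interferon response genes, 3 fell, none rose and 30 did not pass. Their median was -0.25, and 30 of 33 were negative. The share of all genes called lower was 0.83%, as above. Without array 6 the counts were 4 and 4 falls and the medians -0.30 and -0.29. Both medians were below that of all genes with each normalization tried, at -0.70 and -0.63 with median scaling.

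Averaged over the class I genes, arrays without competition lay at 6.82 to 7.18 (median 6.94) and arrays with competition at 7.17 to 7.42 (median 7.27). Young cells lay higher than either, at 7.53 to 7.80, and TN3 controls at 7.19 and 7.27. The interferon response genes averaged 5.13 to 5.81 (median 5.50) without and 5.61 to 5.93 (median 5.87) with competition, against 6.27 to 6.68 in young cells and 5.80 and 5.87 in TN3 controls. The ranges of the old groups overlapped slightly for the class I genes and more widely for the interferon genes.

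**Figure D3:**
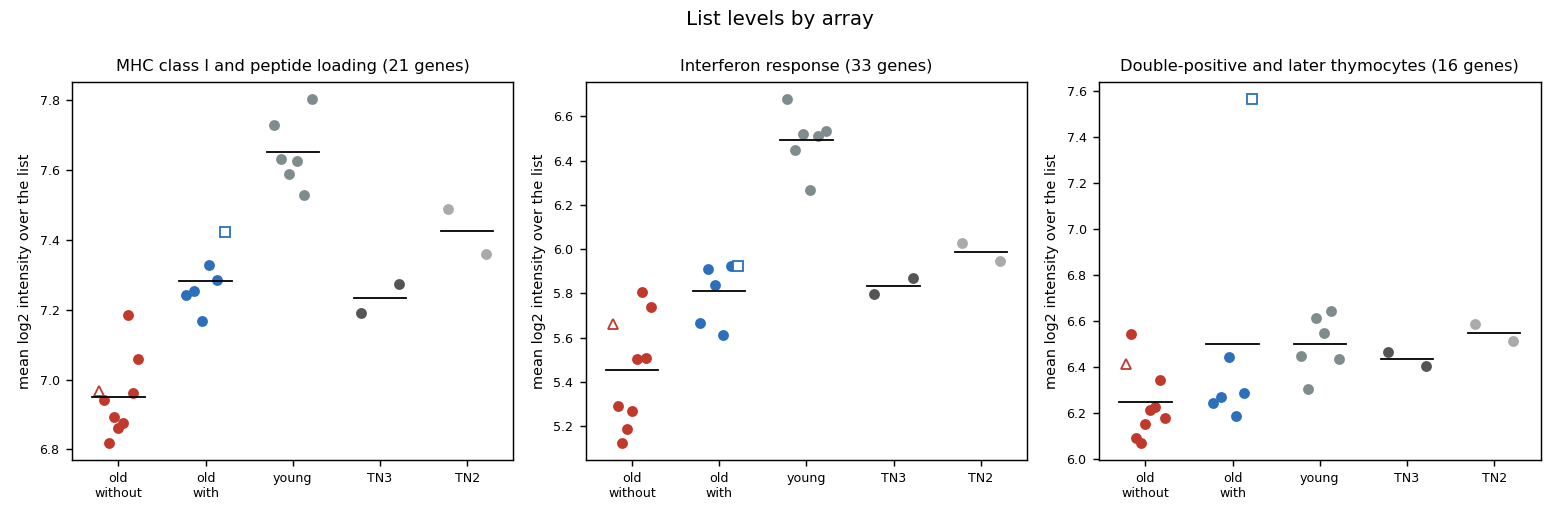
Mean normalized log2 intensity on each array over 21 genes of MHC class I presentation, 33 interferon response genes and 16 genes of double-positive and later thymocytes, with bars at group means (n = 9 old without competition, 6 old with competition, 6 young, 2 TN3 and 2 TN2). The open square is array 6 of the old cells with competition and the open triangle array 1 of the old cells without. In the first 2 panels old cells without competition are the lowest group, and in the third panel array 6 lies at 7.56, above all other arrays.

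Of the class I molecules themselves, H2-T23, which encodes Qa-1, was at 5.26 to 6.49 (median 6.19) without and 6.64 to 7.55 (median 6.94) with competition. Its fold change was -0.89 ± 0.18 (adjusted p = 0.0113), the groups did not overlap, and its other probes gave -0.69 ± 0.22 and -0.99 ± 0.22. H2-K1, a classical class I heavy chain, was at 5.70 to 6.85 (median 6.19) without and 6.42 to 7.13 (median 7.02) with competition, with -0.66 ± 0.16 (adjusted p = 0.0393). This call was lost in 11 of the 15 fits that left out 1 array, and its other, dim probe gave -0.16 ± 0.13. H2-D1, the other classical heavy chain, stood at -0.75 ± 0.24 and was not called, and B2m, the shared light chain, stood at -0.07 ± 0.09. Psmb9, an immunoproteasome subunit, was at 8.83 to 9.24 (median 9.16) without and 9.34 to 9.69 (median 9.54) with competition, a fold change of -0.40 ± 0.08 (adjusted p = 0.0117) with no overlap. Its partners Psmb8 and Psmb10 stood at -0.12 ± 0.10 and -0.11 ± 0.09, and the transporter genes Tap1 and Tap2 at -0.42 ± 0.16 and -0.52 ± 0.21, none of them called. Calr and Psme2 had the largest positive values in the class I list, which does not hold H2-Q8, H2-Q2 or H2-Q6, at 0.50 ± 0.15 and 0.34 ± 0.21, also not called. H2-Q8, H2-Q2 and H2-Q6 were higher without competition while H2-T23 and H2-K1 were lower, so class I heavy chain probes moved in both directions. H2-Q6, named after its value was seen, was at 0.69 ± 0.13.

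Among the interferon response genes, Irf9, the DNA-binding subunit of the complex ISGF3, was at 4.84 to 6.15 (median 5.47) without and 5.95 to 7.15 (median 6.41) with competition, with -1.06 ± 0.23 (adjusted p = 0.0164). Trim30a, an interferon-inducible regulator of Toll-like receptor signalling, was at 4.12 to 6.10 (median 5.10) without and 5.80 to 6.74 (median 6.27) with competition, with -1.05 ± 0.24 (adjusted p = 0.0282). The ranges overlapped for Irf9 and for Trim30a. The other kept probe of Irf9 gave -0.59 ± 0.29 and was not called. Irf9 lost its call without array 5 of the cells with competition (adjusted p = 0.0562), and Trim30a lost it without array 3, 4 or 5 of that group or array 6 of the cells without competition. Ifi47, an immunity-related GTPase, was at 5.09 to 6.15 (median 5.54) without and 6.16 to 6.59 (median 6.52) with competition, with -0.84 ± 0.17 (adjusted p = 0.00872), and its groups did not overlap. Isg15 and Ifit3, both strongly induced by type I interferon, stood at -0.07 ± 0.25 and -0.08 ± 0.16 and were not called, and Parp14 stood at 0.76 ± 0.21, also not called.

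Promoters of 6 of the 7 called class I and interferon genes were at hand from RefSeq (GRCm38.p6); that of Nlrc5 was not. They are shown where they hold the core of the interferon-stimulated response element, which IRF9 and other IRF proteins bind, searched as GAAA, any 2 bases and GAAA on either strand. It lay in the 250 bases before the start of 2 of the 6 genes and of 17 of 41 measured members of both lists with a promoter, against 3.46% of 27025 genes with a promoter. The capitals mark the match, which begins 124 bases before the H2-T23 start (chr17:36032702-36032951, minus strand) and 36 bases before the Trim30a start (chr7:104465194-104465443, minus strand). A match is a description of the letters, and binding was not measured.
H2-T23: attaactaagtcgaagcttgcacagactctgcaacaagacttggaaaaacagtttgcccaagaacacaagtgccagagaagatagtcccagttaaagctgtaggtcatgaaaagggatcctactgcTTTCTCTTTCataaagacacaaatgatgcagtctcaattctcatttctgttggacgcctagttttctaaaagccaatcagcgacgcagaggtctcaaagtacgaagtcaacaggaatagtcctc
Trim30a: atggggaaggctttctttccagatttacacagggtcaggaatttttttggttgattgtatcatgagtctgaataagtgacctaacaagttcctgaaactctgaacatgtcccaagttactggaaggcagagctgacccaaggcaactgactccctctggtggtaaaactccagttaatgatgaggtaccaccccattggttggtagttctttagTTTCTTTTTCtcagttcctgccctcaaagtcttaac

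Most genes of T cell development did not pass the test. Of 22 TN3 and beta-selection genes, 2 fell and none rose. Rag1, the recombinase subunit, was at 8.55 to 9.47 (median 8.99) without and 9.48 to 11.13 (median 9.56) with competition, with -0.83 ± 0.19 (adjusted p = 0.0315). Its ranges met without overlapping, the arrays with competition lay above all 19 others, and the change was -0.57 (adjusted p = 0.0128) without array 6, the highest at 11.13. Rag1 lost its call without array 1 or array 3 of the cells without competition (adjusted p = 0.0519 and 0.0609). Tcf12, which encodes the E protein HEB, was at 7.40 to 8.43 (median 7.89) without and 8.28 to 9.00 (median 8.68) with competition, with -0.76 ± 0.16 (adjusted p = 0.0126), but of its other probes 1 gave 0.37 ± 0.27 and 1 gave -0.54 ± 0.18. The Tcf12 call was lost with the mean of its probes (-0.31) and without array 4 of the cells with competition. Ptcra, the pre-T cell receptor alpha chain, and Dtx1 and Notch3, of the Notch pathway, had positive fold changes of 0.75 ± 0.23, 0.73 ± 0.25 and 0.57 ± 0.31 that were not called. No member of the Notch list (18 genes) or of the early progenitor and TN2 list (17 genes) was called in either direction. The Notch genes averaged 4.88 on array 6 and 5.46 to 5.60 on the other arrays with competition. Their median fold change of 0.18 was 0.12 without array 6. In the double-positive list (16 genes) none was called either, and its median of -0.26 was -0.01 without array 6.

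Of 19 genes of interleukin-7 and STAT5 signalling, 2 fell and none rose. Stat5b, a transcription factor downstream of the receptor, was at 4.63 to 5.48 (median 5.28) without and 5.76 to 6.27 (median 6.08) with competition, with -0.86 ± 0.19 (adjusted p = 0.021) and no overlap. It lost its call without array 1 of the cells with competition (adjusted p = 0.0613). Stat5b lay at 5.27 to 6.31 in young cells, at 4.18 and 4.44 in TN3 controls and at 4.16 and 5.60 in TN2 controls. Jak1, a kinase bound to the receptor, was dim, at 4.21 to 4.67 (median 4.36) without and 4.50 to 5.15 (median 4.87) with competition, with -0.43 ± 0.11 (adjusted p = 0.0425), and it lost its call in 10 of the 15 fits that left out 1 array, that without array 6 among them. Stat5a stood at -0.03 ± 0.11, Il7r at 0.31 ± 0.25 and Bcl2, a survival target, at 0.44 ± 0.23, none of them called.

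Single members fell in other lists. Trp53inp1, a stress protein induced by p53, was at 7.16 to 8.18 (median 7.66) without and 8.30 to 10.26 (median 8.38) with competition, with -1.01 ± 0.24 (adjusted p = 0.0358). The groups did not overlap, array 6 was the highest, and the change without it was -0.71 (adjusted p = 0.0262). Its call was lost in 6 of the 15 fits that left out 1 array, with adjusted p at most 0.0792. Trp53inp1 was the only called gene of 22 p53 targets. Rps3, the only called gene among the 28 listed cytosolic ribosomal proteins (3 were lower without array 6), was at 8.66 to 9.04 (median 8.78) without and 9.34 to 9.63 (median 9.49) with competition, with -0.67 ± 0.09 (adjusted p = 0.000245), but its other probe gave 0.04 ± 0.19 and the mean of its probes was not called. Outside the list and named after their values were seen, Rpl29 (-0.73 ± 0.09) and Rps3a1 (-0.37 ± 0.08) were called lower and Rps26 (0.29 ± 0.07) and Rpl36al (0.29 ± 0.06) higher. Kif20a, a kinesin of cell division and the only called gene of 26 mitosis genes (2 were lower without array 6), was at 4.88 to 5.42 (median 5.13) without and 5.42 to 6.14 (median 5.81) with competition, with -0.65 ± 0.13 (adjusted p = 0.0117). The ranges of Kif20a touched.

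No member was called among 18 genes linked to cell competition in other tissues. In that list Myc, whose level decides winners in fly and mouse embryo tissue, stood at 0.37 ± 0.28 over all arrays and at 0.03 without array 6, and Flot1, a flotillin of membrane rafts, stood at -0.80 ± 0.26. The proliferation lists turned with array 6: the median over 32 replication genes was 0.17 with it and -0.12 without it, and over 26 mitosis genes 0.09 with it and -0.07 without it. Median scaling also turned both medians, to -0.39 and -0.36. No replication gene was called over all arrays, and 2 were lower without array 6. Among markers of other cell types, none of 4 B cell, 17 myeloid and dendritic, 7 erythroid, 5 mast cell, 12 gamma-delta T, NK and innate lymphoid, or 8 stromal genes was called. The mean levels of these lists overlapped between the groups. The myeloid list averaged 4.40 to 4.61 without and 4.41 to 4.47 with competition. The mast cell list averaged 4.21 to 5.57 without and 4.24 to 4.74 with competition. All 5 mast cell genes and 6 of 7 erythroid genes had positive fold changes, with medians of 0.34 and 0.20, and the part of such cells in the results was not tested.

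**Figure D4:**
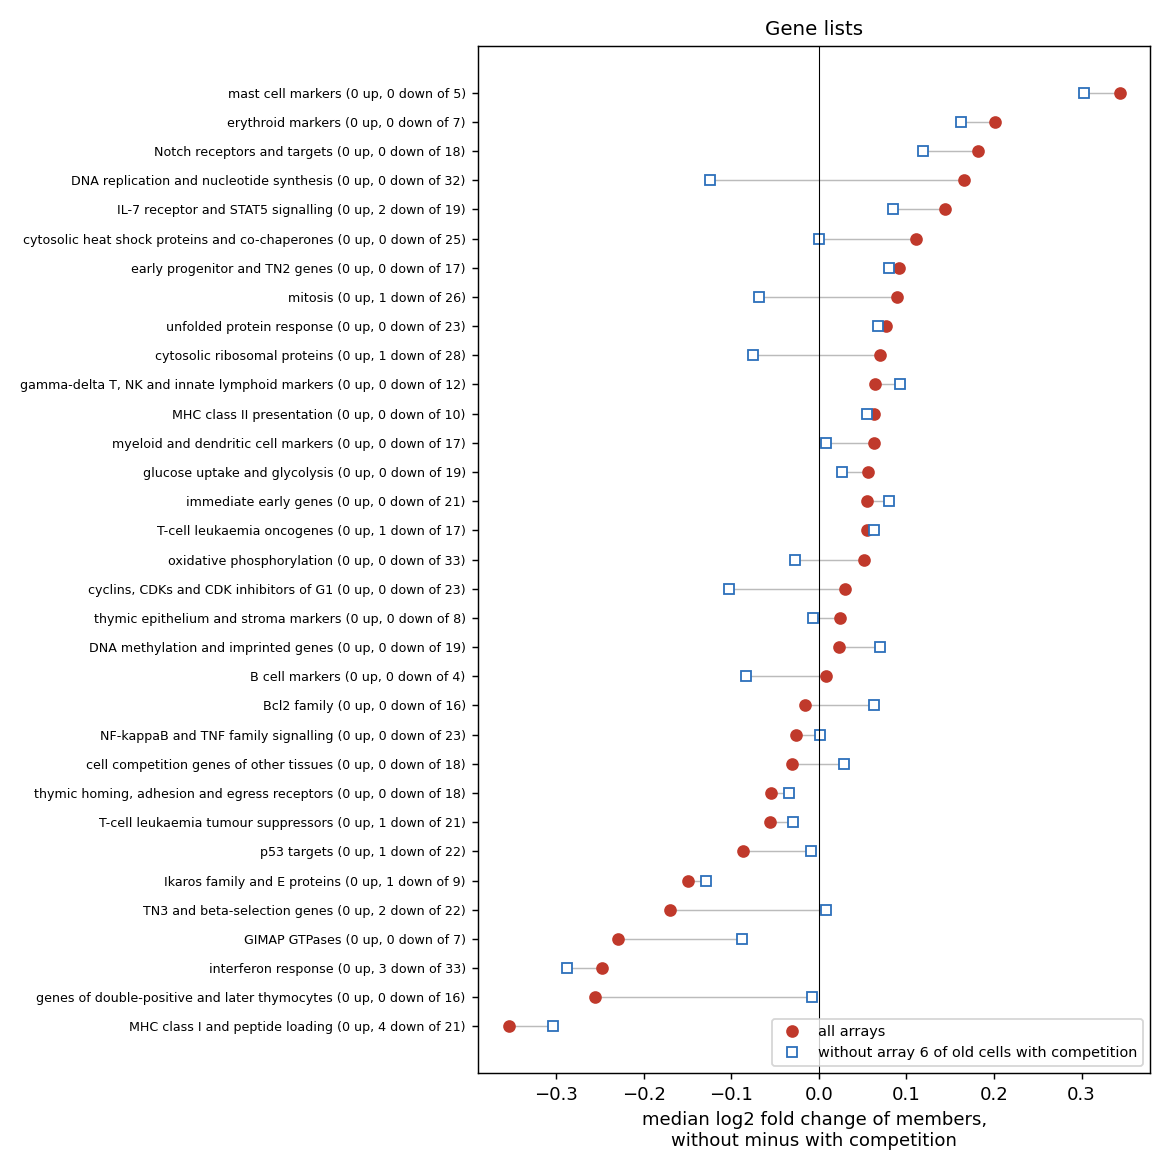
Median log2 fold change (old without minus old with competition) of the measured members of 33 gene lists, over all arrays (filled circles) and without array 6 of the old cells with competition (open squares). Labels give the number of members called higher and lower of those measured. The MHC class I list, which does not hold H2-Q8, H2-Q2 or H2-Q6, has the lowest median (-0.35). The replication list crosses 0 when array 6 is left out.

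Agreement between probes of a gene was limited. Of the 193 called genes, 108 had a single kept probe and 85 had several. All probes had 1 sign in 54 of the 85 genes (63.5%), against 2754 of the 5459 tested genes with several probes (50.4%), and at least 1 probe went the other way in 31. A further probe was itself called in 11 genes (12.9%). Of the 124 other probes, 89 had the sign of the probe that stood for the gene, and their median change in its direction was 0.12, against 0.69 for the probes chosen, which were the brightest of each gene. Among the 39 other probes with a mean level of at least 6, 27 had the same sign. The following examples were named after their values were seen. Psmd8, a subunit of the 19S proteasome cap, had bright probes that disagreed. It was at 7.12 to 7.82 (median 7.45) without and 8.42 to 8.78 (median 8.74) with competition, with -1.20 ± 0.11 (adjusted p = 2.45e-07), while its other probe gave 0.15. Clic4, a chloride intracellular channel protein, agreed on 3 probes, at -0.60, -0.61 and -0.79.

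**Figure D5:**
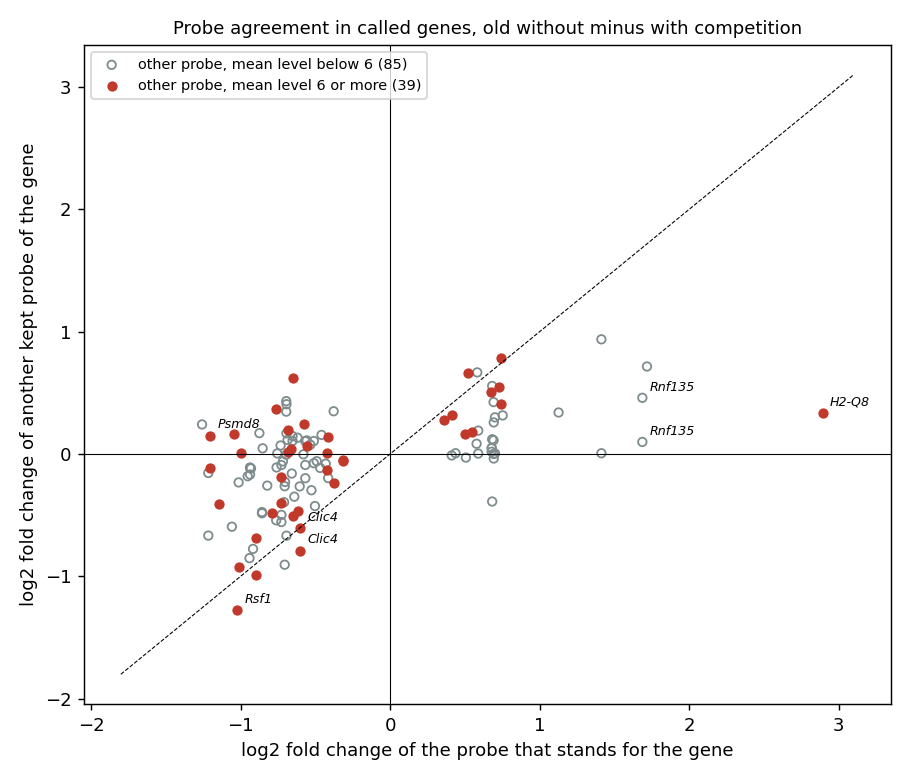
Each point is 1 of the 124 other kept probes of called genes, with the log2 fold change (old without minus old with competition) of the probe that stands for the gene on the x axis and its own on the y axis. Filled points are the 39 probes with a mean level of at least 6, and the dashed line marks equality. Points for H2-Q8 and Psmd8 lie near 0 on the y axis, while those for Rsf1 and Clic4 lie near the dashed line.

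Each chip of old cells without competition was also set against each chip of old cells with competition. These 4 pairings split the same arrays that gave the 193 calls, so they describe how evenly a difference was spread over the chips. A call in every pairing was met by 18 genes (0.116% of genes), 8 higher and 10 lower. They were H2-Q8, Rsph1, Mtmr9, Ptpn7 and 4 predicted genes among the rises, and Copb1, Picalm, Rps3, Psmd8, Zfp871, Pex19, H2afv, Tmem68, Zxdb and the predicted gene Gm7194 among the falls. Within old cells without competition, chips 1 and 5 differed in 1 gene (0.00644%; 1006 at an unadjusted p below 0.05), which was not among the 193. Within old cells with competition, chips 2 and 4 differed in 0 genes by limma (1096 at an unadjusted p below 0.05). Chip 2 held the outlying array 6, which widens the spread, and this contrast was not repeated without it. The 0 therefore does not show that these chips were alike. With the mean of each chip as a single sample, only 2 genes were called, both higher.

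The groups did not overlap at all for 110 genes (0.708%), 48 higher and 62 lower without competition, and 77 of them were called. Without array 6 the number was 255 (1.64%). In 20 genes (0.129%) all 9 arrays without competition lay outside the range of the other 16 arrays of the series, and 18 of these were called, 8 higher and 10 lower. Besides Rsph1 and Mtmr9 the higher ones included Ccnb1ip1, a ubiquitin ligase of meiosis, which was not detected on any array with competition and was at least 1.61-fold higher without it (adjusted p = 0.0056), and the predicted gene Gm12091, whose change of 2.60 ± 0.12 had the smallest adjusted p of the comparison, 7.91e-13. The lower ones were Psmd8, Zfp871, Pex19, H2-T23, H2afv, Mettl14, Rpl29, Sri, Fgfr1op2 and Psmb9. Other kept probes went the other way for Psmd8 (0.15), Zfp871 (0.16), Fgfr1op2 (0.06), Mettl14 (0.0045, a dim probe) and Sri (0.12, 0.20 and 0.02). Those of Pex19, H2-T23 and Rpl29 had the same sign, and H2afv and Psmb9 had 1 kept probe. Pex19, a chaperone of peroxisomal membrane proteins, was at 7.98 to 8.73 without and 9.11 to 9.55 with competition, and Mettl14, a subunit of the RNA m6A methyltransferase, at 7.11 to 8.30 without and 8.32 to 8.83 with competition. The opposite pattern, all 6 arrays with competition outside the other 19, was met by 3 genes (0.0193%): Rag1, Rnf135 and the predicted gene 0610037M15Rik.

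On chromosome 17, which carries the MHC, 20 of 725 tested genes were called (2.76%), against 1.24% of all genes tested and at most 1.82% on any other chromosome. Within 50 tested genes to each side of H2-D1, in RefSeq gene order, 7 of 100 were called: Neu1, Abhd16a, H2-Q2, H2-Q6, 2300002M23Rik, H2-T23 and Ppp1r11. Around H2-K1 it was 6 of 100, Psmb9, Neu1, Pknox1, Zfp871, Hnrnpm and AA388235. Around Ptprc, whose allele the CD45.1 marker distinguishes, 3 of 100 were called, among them Ptpn7, and around Nlrc5 none of 100. The strain background differs between the groups, and its part in these values was not tested.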

How the data were processed

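The members, gene lists and tests were chosen with earlier results of these data known. The authors' deposited table of non-normalized values held mean bead intensity for 46237 probes on a linear scale, without background subtraction or scaling, as the values show. A detection p-value stood beside each deposited intensity; the sources used here do not give its test. The authors also deposited a log2 table with equal quartiles on every array (all medians 6.51), used as an alternative. Per the labels, RNA was isolated with RNAzol B and labelled with the Ambion MessageAmp kit.

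Intensities were background-corrected from the detection p-values, given an offset of 16, quantile normalized and log2-transformed (the neqc steps of limma 3.58.1, R 4.3.3), which understates changes of dim genes. Probes with a detection p-value below 0.05 on at least 3 arrays were kept (30174). Names came from the platform annotation, with 35784 probes having 1 symbol and 10453 none, updated through RefSeq (28620 matched by gene identifier, 2637 by accession). The probe with the highest mean stood for each gene, giving 15533 genes.

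All 25 arrays entered a limma fit with 5 group means and the chip as random block (duplicateCorrelation, statmod 1.5.0; correlation 0.00457). Chips were read from the sample titles. Tests were two-sided, with Benjamini-Hochberg adjustment over all genes. A gene undetected on every array of a group is given as at least the fold over each array's lowest detected signal, or its own signal where higher. Named genes were the 12 largest rises and 12 largest falls called with and without array 6 and with 1 sign over their probes, predicted genes skipped, then up to 4 called members per list by adjusted p, and label checks. The number of arrays limits the precision. The code was tested on simulated data with independent noise, no chip effect and no outlying array. There, 20 of 181 calls were false. Changes of 1.5-fold, 2-fold and 4-fold were found in 59.7%, 82.1% and 100% of the altered genes. Alternatives varied the background, scaling, offset, filter, probe choice, arrays, chip term and array weights.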

Additional observations from a re-analysis of the deposited data

Results flagged for a closer look

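Within groups of 4 to 10 arrays, 86 sets of values of the named genes were checked for an array far from the rest. The check singled out 11, and chance gives about 1 in 20. Of these, 8 were on array 6 of the old cells with competition. It was the highest array of its group for Cd4 (8.86), Rag1 (11.1), Rag2 (6.84), Trp53inp1 (10.3), Ptprc (8.65) and, though not detected on any array of the group, Ptpn7 (4.23). It was the lowest for Rnf135 (4.10) and Aldh2 (7.94). Among old cells without competition, array 1 was the lowest for Psmb9 (8.83) and the highest for Tsen34 (6.63), and array 4 was the lowest for Rsf1 (4.75). The array without a cell-type label is array 1 of that group.

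Probes without a gene symbol were tested apart from the genes. Of 6092 such probes, 57 were called between old cells without and with competition, 15 higher and 42 lower.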

How the results depend on the processing

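The count of 193 called genes (64 higher, 129 lower) lay between 172 and 230 with no background correction, an offset of 50, the deposited log2 table, either filter on dim probes, the mean of all probes, only the 15 arrays compared, or no chip term. Median scaling gave 3425 (42 higher, 3383 lower), array weights 577 (226 and 351), and chip means as samples 2 (2 and 0). The cause was not tested. Leaving out 1 array gave 108 to 337 calls, 37 to 106 higher and 71 to 231 lower. The count was 337 without array 6 with competition, 119 without its array 1 and 108 without its array 4. The lower calls were 84 without array 6 of the cells without competition. Without array 6 with and array 1 without competition, an alternative chosen after seeing the data, 366 genes were called (120 and 246). Median scaling gave 311 genes called in each pairing of chips, in place of 18. The 1 gene between chips 1 and 5 became 0 with no background correction, median scaling, the deposited log2 table or the stricter filter, and 5 with no filter.

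Of the 35 called named genes, none changed sign. The call was kept by 22 in all 15 fits that left out 1 array, by 22 in all 10 other settings apart from chip means, and by 19 in all of these. Of fits that left out 1 array, Jak1 lost its call in 10, H2-K1 in 11, Trp53inp1 in 6, Trim30a in 4 and Rag1 in 2. Uncalled values changed sign for Rag2 (-0.32 to 0.19 with 1 array left out, 0.10 with array weights, 0.14 without arrays 6 and 1), Cd44 (-0.011, median scaling) and Kit (-0.0055, median scaling). No paired analysis was possible because the labels give no replicate numbers. Dim probes near the floor limit what could be detected.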

Other observations

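Called genes outside the lists above included several with known roles in T cells or in gene regulation, chosen here after their values were seen. Cfl1, which encodes the actin-severing protein cofilin, lay at 6.56 to 8.00 (median 7.32) in old cells without competition and at 7.93 to 8.74 (median 8.36) with competition, a fall of -0.99 ± 0.18 (adjusted p = 0.00613 in limma's test). Cyfip2, a subunit of the WAVE complex that drives actin branching, was at 8.91 to 9.23 (median 9.08) without and 9.37 to 9.96 (median 9.60) with competition. It fell by 0.50 on the log2 scale (adjusted p = 0.00369), and its groups did not overlap. Cd96, a receptor of the immunoglobulin superfamily on T cells, was at 4.84 to 5.90 (median 4.94) without and 5.49 to 6.60 (median 5.98) with competition, a change of -0.82 ± 0.16 (adjusted p = 0.00872).

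Exosc3 and Exosc9, both subunits of the RNA exosome, were lower without competition, by -0.93 ± 0.20 and -0.91 ± 0.22 (adjusted p = 0.0191 and 0.0387). Ctcf, which shapes chromatin loops, was at 7.09 to 7.47 (median 7.22) without and 7.40 to 7.85 (median 7.67) with competition, a change of -0.41 ± 0.09 (adjusted p = 0.0267). Mpzl2, an adhesion protein of the thymus, was higher, at 6.51 to 7.25 (median 6.67) without and 4.76 to 6.51 (median 5.99) with competition, a change of 0.89 ± 0.20 (adjusted p = 0.0241), or 0.67 without array 6. The 6 of these genes that were lower and Mpzl2 were also called without array 6. The other alternatives were not run for them singly.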
